A study of Camelina sativa with 12 samples.

Results

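The expression data came from shoots of salt-treated Camelina sativa, an oilseed relative of Arabidopsis, and the comparison described here set the plants that carry a bacterial acdS transgene against the plants that do not. Its members were 6 of the 12 libraries, 3 from the line 35S::acdS and 3 from the line rolD::acdS. They were set against the other 6 libraries, 3 from DH55 plants in soil inoculated with Pseudomonas migulae 8R6 (8R6) and 3 from DH55 plants without the bacterium (control). All 12 libraries were whole shoots of cultivar DH55 background, 28 days old and watered with 192 mM NaCl at 15 dS m−1 for the last 21 days. The transgene encodes the ACC deaminase of Pseudomonas sp. UW4 and was driven by the double CaMV 35S promoter, which is active in most tissues, or by the rolD promoter of Agrobacterium rhizogenes, which is known for activity in roots. Each promoter was represented by a single transgenic line, so a line and its promoter cannot be told apart. The soil of the control and of both acdS lines received buffer at sowing and a week later, and the soil of 8R6 plants received the bacterium instead. The acdS transcript itself is not a row of the table and was not analysed here.

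ACC deaminase cleaves 1-aminocyclopropane-1-carboxylic acid (ACC), which ACC oxidase otherwise converts to ethylene, a hormone of stress responses and senescence. ACC itself is made by ACC synthase, and ethylene acts through response factors of the AP2/EREBP family. The strain 8R6 makes an ACC deaminase of its own, outside the plant cell. The contrast of acdS lines with both DH55 groups therefore separates plants by genotype and not by the presence of the enzyme. The 4 groups were weighted equally, so that each acdS line and each DH55 group counted the same.

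The libraries held between 10520627 and 23587748 counts. Of 89418 genes in the table, 56932 had at least 0.5 CPM (counts per 1000000 counts of the library) in at least 3 libraries and were tested. These genes held 99.8 to 99.9% of the counts of every library. The factors that scale libraries to a common composition (TMM) lay between 0.967 and 1.04, and the CPM values given here include them. Genes of the photosystems were read in every library, as they would be in green shoots. Photosystem I subunit D-1 (Csa08g050560), for example, ranged over 27.5 to 75.9 CPM, whereas the light harvesting gene Csa01g001010 ranged over 0.154 to 3.23 CPM. Camelina sativa is an allopolyploid with 3 sub-genomes, and most genes have near-identical copies (homeologues) between which reads may have been shared. Nothing in the labels says whether the 3 replicates of a group came from separate sowings, so p-values measure the spread between these libraries.

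One stretch of the genome stood apart in 5 of the 6 DH55 libraries and in none of the 6 acdS libraries. It consisted of neighbouring genes on chromosome 4, from Csa04g058080 to Csa04g065890 in the order of their identifiers, and it was delimited after the values were seen. Of 342 tested genes in the stretch, 310 averaged at least 1 CPM in the acdS libraries. Relative to that average, the median gene of 35S::acdS libraries stood at 102, 100 and 98.5%, and that of rolD::acdS libraries at 98.6, 98.5 and 96.6%. In the 8R6 libraries the median gene stood at 52.6, 3.14 and 52.4%, and in the control libraries at 98.4, 2.40 and 50.9%. Reads of the stretch were thus nearly missing from replicate 2 of 8R6 and replicate 2 of the control. They were reduced in 3 more DH55 libraries and at the acdS level in control replicate 1. The low level was shared by nearly all genes: 300 of 310 were under 25% of the acdS average in 8R6 replicate 2, as were 302 of 310 in control replicate 2. The same held for 6 and 14 genes in 8R6 replicates 1 and 3, and for 0 and 2 genes in control replicates 1 and 3.

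Values of 3 genes of the stretch, chosen after they were seen, show how it looked in single genes. Csa04g061790, which the sources do not annotate, had 343, 305 and 278 CPM in 35S::acdS and 255, 266 and 270 CPM in rolD::acdS, against 149, 10.4 and 119 CPM in 8R6 and 274, 6.13 and 139 CPM in the control. Csa04g060630, also without annotation, had 120, 105 and 102 CPM in 35S::acdS and 116, 101 and 120 CPM in rolD::acdS, against 43.4, 5.36 and 48.8 CPM in 8R6 and 101, 6.38 and 58.2 CPM in the control. In both genes control replicate 1 sat beside the acdS libraries, while replicate 2 of either DH55 group lay lowest, as in the stretch as a whole. An annotated gene of the stretch was Csa04g063240, UDP-D-glucuronate 4-epimerase 4, which makes the precursor of pectin. It followed the steps less closely, with 4.92, 3.97 and 4.50 CPM in 35S::acdS and 3.55, 4.01 and 3.74 CPM in rolD::acdS, against 2.91, 1.23 and 2.68 CPM in 8R6 and 2.84, 1.33 and 2.04 CPM in the control. Replicate 2 of either DH55 group was again lowest but not near 0, and control replicate 1 lay beside 8R6 replicates 1 and 3 and not beside the acdS libraries. The acdS libraries did not overlap the DH55 libraries, with a log2 fold change of 0.90 (SE 0.21, adjusted p = 0.123 in edgeR's quasi-likelihood test).

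**Figure D1:**
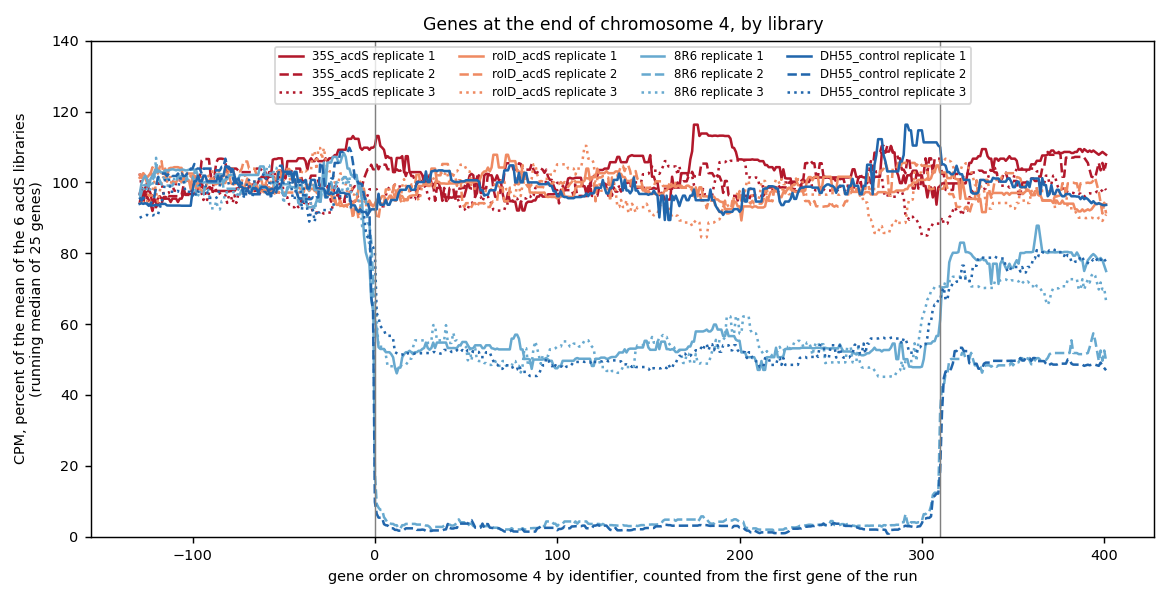
Running median, over 25 neighbouring genes, of each library's CPM as a percent of the mean of the 6 acdS libraries, plotted against gene order at the end of chromosome 4. The 6 acdS libraries and control replicate 1 stay near 100%, replicate 2 of 8R6 and of the control drops to about 3.14 and 2.40%, and the other 3 DH55 libraries run near 50.9 to 52.6%.

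The genes on either side had other levels. The 342 tested genes before it, from Csa04g052230 to Csa04g058040, had medians of 96.8 to 102% in all 12 libraries. The 101 tested genes after it, from Csa04g065900 to Csa04g068180 at the end of the chromosome, had medians of 95.1 to 107% in the acdS libraries. In those genes the medians were 79.9, 50.4 and 72.1% in 8R6 and 97.6, 49.6 and 78.6% in the control. A scan of 1971 windows of 25 neighbouring genes over all chromosomes marked 14 windows in which a library deviated by more than 0.4 (log2) from the median of the 12 libraries, and all 14 were on chromosome 4, between Csa04g059200 and Csa04g067870. No window elsewhere deviated by more than 0.391. What lies behind the stretch was not tested. Because most DH55 libraries lay below the acdS level in the stretch, its genes entered the contrast as higher in the acdS lines. Their median log2 fold change was 1.17, with 256 of 342 genes above 1. The stretch also divides replicates within both DH55 groups, and none of its genes came near the threshold (smallest adjusted p = 0.123, edgeR).

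Over all genes, few differences between the acdS lines and the DH55 groups stood out from the spread between libraries. With adjusted p of 0.05 or less and a fold change above 2, the quasi-likelihood test called 0 genes lower (0%) and 0 genes higher (0%) among 56932. Without the fold threshold 1 gene (0.00176%) was called, and at an adjusted p of 0.1 or less 169 genes (0.297%) were, 115 of them lower and 54 higher in the acdS lines. At an unadjusted p under 0.05 there were 7757 genes (13.6%), 4397 lower (7.72%) and 3360 higher (5.9%). Of these, 617 were more than 2-fold lower (1.08%) and 254 more than 2-fold higher (0.446%). The 617 and the 254 were thinly covered, with median levels of 0.929 and 1.68 CPM, whereas the median of all tested genes was 6.39 CPM. The 6 acdS libraries lay entirely below the 6 DH55 libraries for 230 genes (0.404%) and entirely above them for 200 genes (0.351%).

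These counts depended on the tool and on single libraries. DESeq2's Wald test called 201 genes lower and 71 higher, and 919 without the fold threshold, and limma called 0 lower and 1 higher, and 2 without it. Leaving out 8R6 replicate 1 gave 12 genes lower and 3 higher, and 74 without the fold threshold. Leaving out 8R6 replicate 3 gave 8 and 0, leaving out rolD::acdS replicate 1 gave 8 and 0, leaving out rolD::acdS replicate 3 gave 2 and 6, leaving out control replicate 1 gave 2 and 2, and leaving out 35S::acdS replicate 3 gave 0 and 5. The other 6 libraries left the counts at 0 and 0 when each was left out. The chromosome 4 genes, from Csa04g058080 to the end, made up 78 of the 254 genes that were more than 2-fold higher at an unadjusted p under 0.05, which is 17.6% of the 443 tested there, against 176 genes (0.312%) elsewhere. They also held 41 of the 200 genes whose acdS libraries lay entirely above.

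The gene past the threshold was Csa16g041690, which the sources do not annotate. It had 17.1, 14.1 and 15.9 CPM in 35S::acdS and 18.2, 20.5 and 19.5 CPM in rolD::acdS, against 7.89, 10.1 and 9.83 CPM in 8R6 and 10.4, 9.09 and 10.8 CPM in the control. Every acdS library was above every DH55 library. Mean levels were 17.6 ± 2.35 CPM in the acdS lines and 9.69 ± 1.05 CPM in the DH55 groups (SD, n = 6 libraries each), and the log2 fold change was 0.85 (SE 0.09, adjusted p = 0.0183, edgeR). Its adjusted p was 0.0763 without 35S::acdS replicate 1, 0.105 without rolD::acdS replicate 2, 0.0638 without 8R6 replicate 2, 0.0645 without control replicate 2 and 0.0716 without control replicate 3. The fold change stayed between 0.70 and 1.00 under all 29 alternatives tried.

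With so few calls, 14 genes in each direction were named in order of their unadjusted p, but not from all genes alike. In each direction 12 came from the study's own lists, which were chosen on these libraries. Only the first 2 genes outside those lists were added, with Csa16g041690 among them. The named genes are therefore not simply the genes of smallest p. None of the other 27 reached an adjusted p of 0.05, and their adjusted p-values lay between 0.0892 and 0.0936. All acdS libraries lay below all DH55 libraries for 8 of the 14 genes that were lower. They lay above them for 4 of the 14 that were higher. Over all tested genes the shares were 0.404% and 0.351%. Genes taken by p in this contrast tend to separate, so these counts follow largely from the choice.

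Among the 14 lower genes, 3 belonged to salicylate synthesis, all from the study's lists, and no test of the theme was made. Salicylate is the hormone of defence against biotrophic pathogens, and in Arabidopsis it is made largely through isochorismate synthase ICS1, from isochorismate that EDS5 carries out of the chloroplast and that PBS3, an enzyme of the GH3 family, joins to glutamate. One copy of ICS1, Csa07g046140, had 2.69, 3.57 and 2.77 CPM in 35S::acdS and 3.25, 2.65 and 2.66 CPM in rolD::acdS, against 5.27, 7.16 and 5.21 CPM in 8R6 and 6.03, 11.1 and 6.19 CPM in the control. No acdS library reached the lowest DH55 library, and the log2 fold change was −1.18 (SE 0.18, adjusted p = 0.0892). Another listed copy, Csa09g079290, had 3.46, 3.79 and 3.20 CPM in 35S::acdS and 3.98, 3.28 and 2.85 CPM in rolD::acdS, against 5.66, 7.23 and 4.28 CPM in 8R6 and 7.11, 8.71 and 6.90 CPM in the control. Its log2 fold change was −0.92 (SE 0.14, adjusted p = 0.0892), again with no overlap. PBS3, Csa08g005200, had 5.23, 10.3 and 10.9 CPM in 35S::acdS and 9.84, 6.11 and 11 CPM in rolD::acdS, against 20.6, 23.6 and 23.7 CPM in 8R6 and 15.6, 20.0 and 17.1 CPM in the control. The acdS libraries again lay below all DH55 libraries (log2 fold change −1.16, SE 0.18, adjusted p = 0.0892).

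The pattern was followed through a list of salicylate genes made after these values were seen, from Arabidopsis orthologues in the study's annotation and, where it gives no orthologue, from its KEGG label, so it is a description. All of its members came from gene sets that the study had chosen on these libraries. Of 22 listed genes 21 were tested, and all 21 had negative log2 fold changes, between −3.04 and −0.58 with a median of −1.64. An unadjusted p under 0.05 was found for 20 of the 21, where the background was 7.72%, and adjusted p-values ran from 0.0892 to 0.442. Among the 20, Csa03g023070 (FMO1) passed the filter of 0.5 CPM through DH55 libraries alone, so a lower acdS level was largely built into its being tested. The median over all tested genes was 0.0056. The acdS libraries did not overlap the DH55 libraries for 5 of the 21, the 3 above with a SARD1-like gene and WRKY70. Over all tested genes 0.404% lay entirely below. SARD1 is a transcription factor that switches on ICS1. The SARD1-like gene, Csa16g037660, entered the list by its KEGG label alone and had 0.154, 1.2 and 0.779 CPM in 35S::acdS and 0.342, 0 and 0.0984 CPM in rolD::acdS, against 3.04, 1.87 and 1.27 CPM in 8R6 and 1.96, 4.93 and 3.28 CPM in the control. Csa16g036620, which has SARD1 as its Arabidopsis orthologue, had 0.0769, 1.34 and 0.779 CPM in 35S::acdS and 0.299, 0.182 and 0.197 CPM in rolD::acdS, against 2.61, 1.68 and 0.633 CPM in 8R6 and 2.30, 4.42 and 3.57 CPM in the control (log2 fold change −2.42, SE 0.48, adjusted p = 0.105). There, and in the other SARD1 orthologue Csa09g078360 (log2 fold change −1.79, SE 0.50), the sides overlapped. WRKY70, a transcription factor of the salicylate response, is Csa04g042830 and had 2.46, 5.44 and 6.84 CPM in 35S::acdS and 3.51, 4.11 and 4.72 CPM in rolD::acdS, against 13.8, 29.4 and 14.5 CPM in 8R6 and 8.81, 16.4 and 8.44 CPM in the control. The log2 fold changes were −2.76 (SE 0.48, adjusted p = 0.0892) for Csa16g037660 and −1.71 (SE 0.30, adjusted p = 0.0936) for Csa04g042830.

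**Figure D2:**
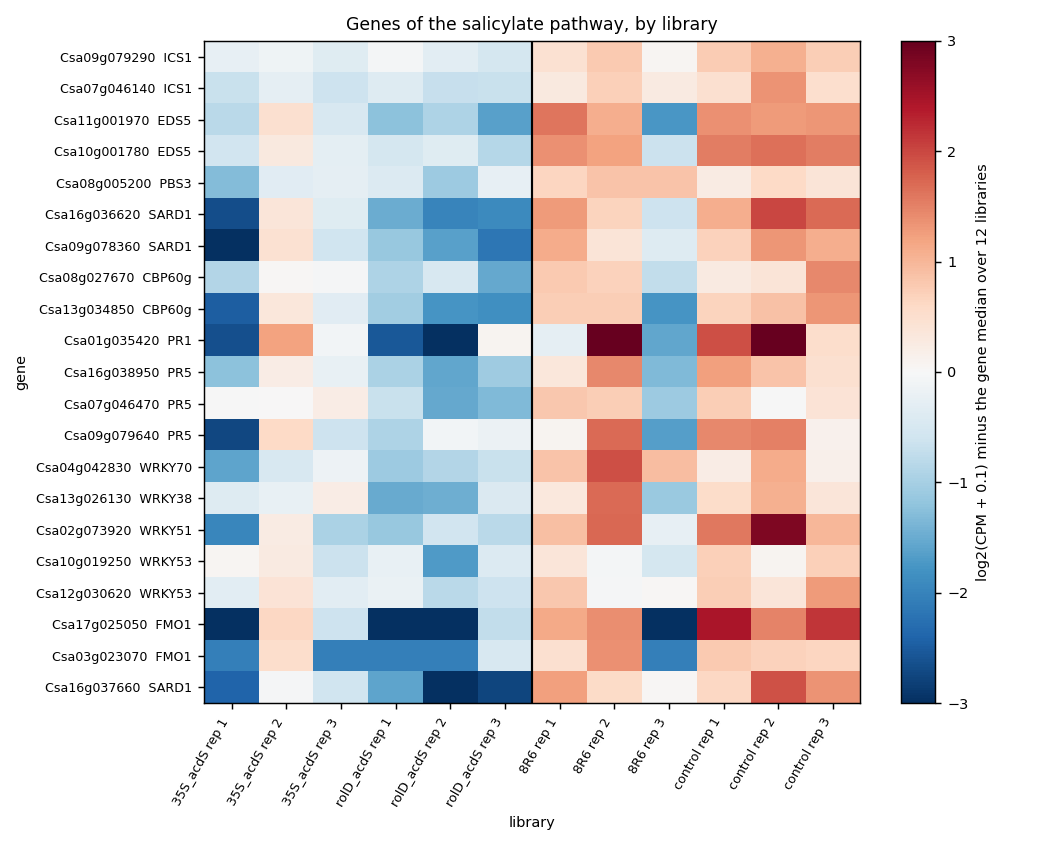
Each row is one of the 21 salicylate genes and each column a library; colour gives log2(CPM + 0.1) minus the gene's median over the 12 libraries. The 3 control libraries and 8R6 replicates 1 and 2 were above the median for 19 to 21 genes, 35S::acdS replicate 2 for 15 genes, 8R6 replicate 3 for 6, and the other acdS libraries for 0 to 2.

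The libraries of a group were not alike in these genes. In 35S::acdS, 1, 15 and 2 of the 21 genes were above their median over 12 libraries, and in rolD::acdS 0, 0 and 1 were. In 8R6 the numbers were 20, 19 and 6, and in the control 21, 20 and 21. Thus 35S::acdS replicate 2 was nearer to the DH55 libraries than the other acdS libraries were, and 8R6 replicate 3 was nearer to the acdS lines than the other DH55 libraries. PR1, the classical marker of the salicylate response, had 3 listed copies that all had negative fold changes, 2 of them with an unadjusted p under 0.05. Its copy Csa01g035420 had 0.154, 3.52 and 1.38 CPM in 35S::acdS and 0.171, 0 and 1.57 CPM in rolD::acdS, against 1.2, 12.8 and 0.438 CPM in 8R6 and 5.96, 13.2 and 2.16 CPM in the control, with overlap between the sides and a log2 fold change of −2.58 (SE 1.08, adjusted p = 0.346). The 2 listed copies of EDS5 both had an unadjusted p under 0.05. Copies of a gene are known here only where the study lists them for their difference on these libraries, so others were not seen. In Csa10g001780 the levels were 0.615, 1.2 and 0.779 CPM in 35S::acdS and 0.642, 0.730 and 0.492 CPM in rolD::acdS, against 2.66, 2.39 and 0.584 CPM in 8R6 and 2.98, 3.28 and 2.99 CPM in the control. Only 8R6 replicate 3 fell among the acdS libraries (log2 fold change −1.67, SE 0.32, adjusted p = 0.0936). Of 3 listed copies of PR5, a thaumatin-like protein, and a PR5-like gene (Csa09g079620), all 4 were negative and 2 of the 4 had an unadjusted p under 0.05. WRKY51 (Csa02g073920) averaged 0.321 ± 0.215 CPM in the acdS lines and 1.98 ± 1.48 CPM in the DH55 groups (SD, n = 6 libraries each).

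STP1, the sugar/proton symporter that takes up hexoses across the plasma membrane, was lower in all 3 of its listed copies. Csa14g014020, the gene with the smallest p among those that were lower, had 10.7, 13.3 and 10.8 CPM in 35S::acdS and 11.8, 7.76 and 8.37 CPM in rolD::acdS, against 16.3, 17.4 and 17.4 CPM in 8R6 and 17.3, 20.2 and 19.6 CPM in the control. Its log2 fold change was −0.78 (SE 0.11, adjusted p = 0.0892) and the sides did not overlap. The copy Csa03g014900 had a log2 fold change of −0.65 (SE 0.10, adjusted p = 0.0892), with 35S::acdS replicate 2 at 17.9 CPM just above 8R6 replicate 1 at 17.6 CPM. The remaining copy, Csa17g015290, lay outside the naming rule and was looked up after the values were seen. It averaged 10.1 CPM in the acdS lines and 16.3 CPM in the DH55 groups without overlap (log2 fold change −0.71, SE 0.13, adjusted p = 0.0892). Reads may have been shared between these copies, so they are not separate observations.

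A cell wall gene and a resistance gene were also among the lower genes without overlap. XTH6, Csa18g039560, encodes a xyloglucan endotransglucosylase/hydrolase, an enzyme that cuts and rejoins wall xyloglucan. It had 0.999, 0.936 and 1.99 CPM in 35S::acdS and 1.5, 0.274 and 1.28 CPM in rolD::acdS, against 4.03, 3.03 and 4.62 CPM in 8R6 and 3.79, 3.35 and 3.16 CPM in the control (log2 fold change −1.64, SE 0.27, adjusted p = 0.0892). That is the largest fold change among the 14 lower genes. The immune receptor Csa04g024330, of the TIR-NBS-LRR class, had 48.9, 68.1 and 63.0 CPM in 35S::acdS and 53.4, 47.5 and 59.9 CPM in rolD::acdS, against 90.0, 84.7 and 76.2 CPM in 8R6 and 83.8, 109 and 126 CPM in the control (log2 fold change −0.73, SE 0.12, adjusted p = 0.0892). The ribosomal protein gene Csa02g032160 (S27) averaged 6.90 ± 1.36 CPM in the acdS lines and 16.8 ± 5.04 CPM in the DH55 groups, also without overlap. Csa20g002300, a hydrolase of the haloacid dehalogenase family, averaged 4.17 ± 0.569 CPM in the acdS lines and 7.06 ± 1.48 CPM in the DH55 groups, with overlap. The unannotated genes Csa08g027660 and Csa16g029100 had log2 fold changes of −0.91 and −0.97, the second without overlap.

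**Figure D3:**
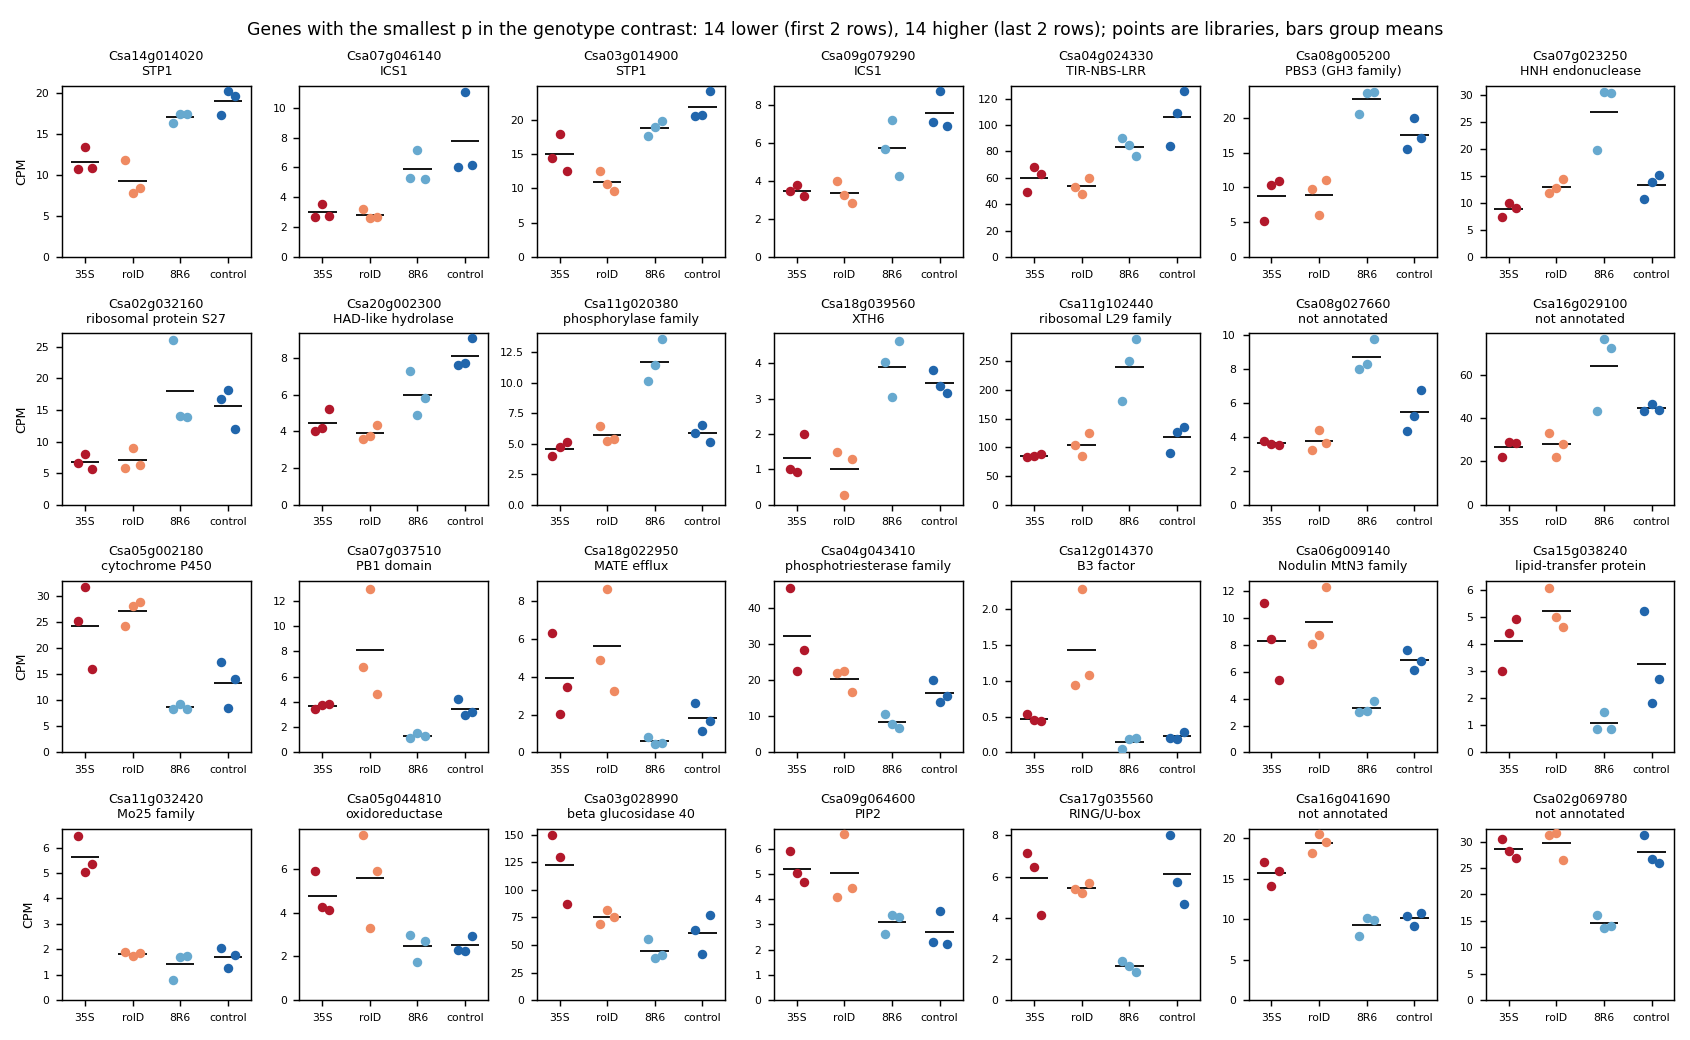
CPM of each of the 12 libraries for the 28 named genes, one panel a gene. Groups from left to right are 35S::acdS, rolD::acdS, 8R6 and control, and the y axis starts from 0. In Csa16g041690 all 6 acdS points sit at 14.1 to 20.5 CPM and all 6 DH55 points at 7.89 to 10.8 CPM, whereas in Csa11g102440 the acdS points sit at 82.9 to 125 CPM, the 8R6 points at 180 to 288 CPM and the control points at 89.8 to 135 CPM.

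Among the genes that were higher in the acdS lines, several encode enzymes and carriers. Csa05g002180, a cytochrome P450, had 25.2, 31.7 and 15.9 CPM in 35S::acdS and 24.3, 28.2 and 28.8 CPM in rolD::acdS, against 8.40, 9.29 and 8.32 CPM in 8R6 and 17.4, 8.52 and 14 CPM in the control. Its log2 fold change was 1.26 (SE 0.18, adjusted p = 0.0892), and 35S::acdS replicate 3 fell below control replicate 1. Csa18g022950, a carrier of the MATE efflux family, had 6.30, 2.05 and 3.46 CPM in 35S::acdS and 4.92, 8.67 and 3.25 CPM in rolD::acdS, against 0.814, 0.452 and 0.487 CPM in 8R6 and 2.64, 1.14 and 1.66 CPM in the control. At 2.15 (SE 0.35, adjusted p = 0.0892) it had the largest log2 fold change of the 28 genes, with overlap between 35S::acdS replicate 2 and control replicate 1. The aquaporin PIP2 gene Csa09g064600, a water channel of the plasma membrane, had 5.92, 5.04 and 4.67 CPM in 35S::acdS and 4.06, 6.57 and 4.43 CPM in rolD::acdS, against 2.61, 3.36 and 3.31 CPM in 8R6 and 2.30, 3.54 and 2.20 CPM in the control. The sides did not overlap (log2 fold change 0.83, SE 0.16, adjusted p = 0.0936), and neither did they for the oxidoreductase Csa05g044810, which averaged 5.19 ± 1.57 CPM in the acdS lines and 2.50 ± 0.483 CPM in the DH55 groups. Csa03g028990, beta glucosidase 40, averaged 98.8 ± 33.1 CPM in the acdS lines and 52.8 ± 15.3 CPM in the DH55 groups, and Csa06g009140, of the Nodulin MtN3 family of sugar carriers, averaged 9.01 ± 2.45 CPM in the acdS lines and 5.08 ± 2.03 CPM in the DH55 groups. The study lists Csa06g009140 for 8R6 alone. Its log2 fold change was 1.44 against 8R6 and 0.38 against the control.

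Csa07g037510, which encodes a protein with a PB1 domain, had 3.46, 3.74 and 3.81 CPM in 35S::acdS and 6.72, 13 and 4.63 CPM in rolD::acdS, against 1.11, 1.55 and 1.27 CPM in 8R6 and 4.20, 2.97 and 3.16 CPM in the control. Its homeologue Csa16g032240 had a log2 fold change of 1.28 (adjusted p = 0.0946), close to the 1.37 (adjusted p = 0.0892) of Csa07g037510 itself. Csa15g038240, of the lipid-transfer protein family, averaged 4.68 ± 1.00 CPM in the acdS lines and 2.16 ± 1.65 CPM in the DH55 groups, and Csa04g043410, of a phosphotriesterase family, averaged 26.4 ± 10.2 CPM in the acdS lines and 12.5 ± 5.06 CPM in the DH55 groups. The study lists both for 8R6 alone. Against 8R6 their log2 fold changes were 2.15 and 1.60, and against the control 0.54 and 0.63.

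Some of the higher genes had unlike levels in the acdS lines. The Mo25 family gene Csa11g032420 had 6.46, 5.04 and 5.37 CPM in 35S::acdS and 1.88, 1.73 and 1.87 CPM in rolD::acdS, against 0.771, 1.68 and 1.75 CPM in 8R6 and 2.03, 1.26 and 1.79 CPM in the control. The rolD::acdS libraries thus lay among the DH55 libraries, and only the 35S::acdS libraries stood above them. The log2 difference of rolD::acdS minus 35S::acdS was −1.61, with an adjusted p of 0.237 in edgeR. The transcription factor gene Csa12g014370, with a B3 domain, had 0.538, 0.446 and 0.433 CPM in 35S::acdS and 0.941, 2.28 and 1.08 CPM in rolD::acdS, against 0.0429, 0.194 and 0.195 CPM in 8R6 and 0.203, 0.189 and 0.291 CPM in the control. Here rolD::acdS lay above 35S::acdS and both lay above all DH55 libraries. The gene passed the filter of 0.5 CPM through acdS libraries alone, so a higher acdS level was largely built into its being tested. Over the 28 genes, 8 had an unadjusted p under 0.05 between the lines, where 12.5% of all tested genes did. By edgeR 0 of the 28 had an adjusted p of 0.05 or less (smallest 0.237), as did 0 of all genes (0%), whereas DESeq2 called 1 of the 28. A difference between the lines in these genes was therefore not detectable in the main test.

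The 28 genes were also compared with each DH55 group alone. The comparisons with 8R6 alone and with the control alone share the 6 acdS libraries, so they are given side by side. Against 8R6 alone, 537 genes (0.943%) had an adjusted p of 0.05 or less, 325 lower and 212 higher, of which 118 (0.207%) were more than 2-fold lower and 93 (0.163%) more than 2-fold higher. Against the control alone there were 0 (0%) by edgeR, with 3868 at an unadjusted p under 0.05. Among the named genes, 10 of 14 lower and 12 of 14 higher ones passed against 8R6, and 0 of 14 and 0 of 14 against the control, where the smallest adjusted p was 0.0893. No tested gene passed against the control, so the counts of 0 are not particular to the named genes. The fold change was larger in size against 8R6 for 8 of the 14 lower genes and for 13 of the 14 higher ones. Counts past a threshold do not test whether the comparisons differ. The test of 8R6 minus control passed for 2 of the 28 genes.

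For ICS1 and STP1 the fold change was the larger against the control. For Csa07g046140 (ICS1) the log2 fold change was −1.38 against the control (adjusted p = 0.0893) and −0.98 against 8R6 (adjusted p = 0.0465). For Csa14g014020 (STP1) it was −0.86 against the control (adjusted p = 0.0893) and −0.70 against 8R6 (adjusted p = 0.0332). The difference between the DH55 groups was not past the threshold in either gene (adjusted p = 0.622 for Csa07g046140 and 0.777 for Csa14g014020). A plastid ribosomal gene showed the other pattern. Csa11g102440, of the ribosomal L29 family, had 82.9, 84.1 and 87.7 CPM in 35S::acdS and 104, 84.2 and 125 CPM in rolD::acdS, against 180, 250 and 288 CPM in 8R6 and 89.8, 127 and 135 CPM in the control. Its log2 fold change was −1.35 against 8R6 (adjusted p = 0.0130) and −0.32 against the control (adjusted p = 0.789). Likewise Csa11g020380, of the phosphorylase superfamily, had −1.19 against 8R6 and −0.18 against the control, and Csa07g023250, an HNH endonuclease, had −1.32 against 8R6 and −0.31 against the control. The study lists these 3 genes for 8R6 alone, for a difference from the control on these libraries. Their larger fold change against 8R6 follows largely from that choice.

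**Figure D4:**
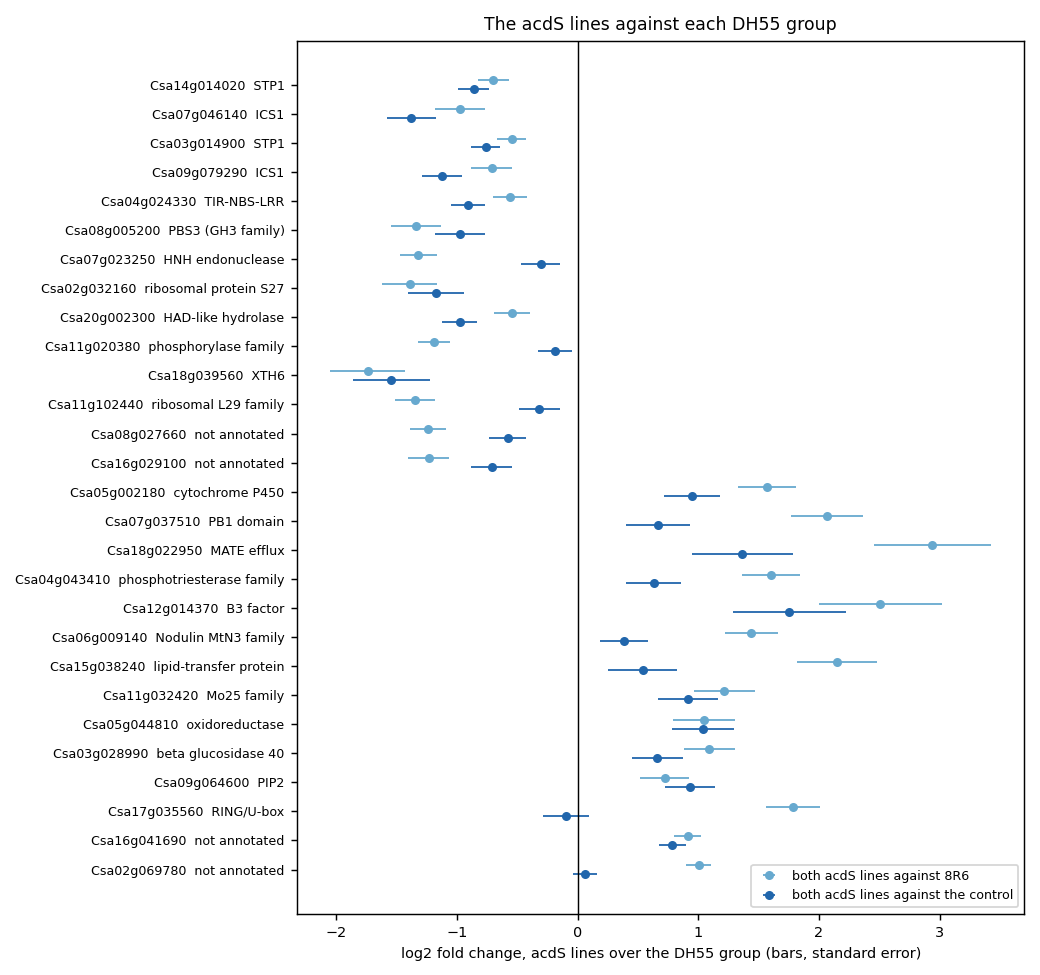
Log2 fold change of the acdS lines over each DH55 group for the 28 genes, with the standard error as bars; points for 8R6 and for the control are drawn separately. Csa17g035560 lies at 1.79 against 8R6 and −0.10 against the control, while Csa16g041690 lies at 0.91 and 0.78.

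A difference between the DH55 groups themselves was past the threshold for 2 of the 28 genes, and for 5 of all 56932 (0.00878%). The count of 2 fell to 0 when 8R6 replicate 1, 2 or 3, rolD::acdS replicate 1 or control replicate 1 was left out and without the robust option. It was 1 without rolD::acdS replicate 2 and 4 without control replicate 2. The RING/U-box gene Csa17g035560 had 7.15, 6.46 and 4.15 CPM in 35S::acdS and 5.39, 5.20 and 5.71 CPM in rolD::acdS, against 1.89, 1.68 and 1.36 CPM in 8R6 and 7.99, 5.75 and 4.65 CPM in the control. The control libraries lay among the acdS libraries, and the log2 difference of 8R6 minus control was −1.88 (adjusted p = 0.0345, edgeR). This gene, too, is one that the study lists for 8R6 alone. The unannotated Csa02g069780 had 30.5, 28.2 and 26.9 CPM in 35S::acdS and 31.3, 31.6 and 26.6 CPM in rolD::acdS, against 16.0, 13.7 and 14 CPM in 8R6 and 31.2, 26.7 and 26.1 CPM in the control, with a log2 difference of −0.94 for 8R6 minus control (adjusted p = 0.0335). In both genes the 8R6 libraries lay below all other libraries.

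Ethylene genes named by the study were examined next. The study named them for a difference from the control on these libraries. Their signs, and the counts set beside the background below, are therefore not independent evidence of a direction. The ACC synthase genes, whose product is the substrate of ACC deaminase, all had negative log2 fold changes (5 of 5, median −2.32), where 48.9% of all tested genes did. An unadjusted p under 0.05 was found for 3 of the 5, against a background of 7.72% of genes with that p and a negative sign. Csa11g018190 (ACS7) had 0.231, 1.11 and 0.346 CPM in 35S::acdS and 0.128, 0 and 0.295 CPM in rolD::acdS, against 2.06, 0.452 and 0.195 CPM in 8R6 and 1.63, 1.64 and 3.70 CPM in the control. 8R6 replicate 1 lay with the control libraries above all acdS libraries, and 8R6 replicates 2 and 3 lay among the acdS libraries (log2 fold change −2.32, SE 0.68, adjusted p = 0.195). Csa10g016710 and Csa12g025860 had log2 fold changes of −2.92 (SE 0.93) and −2.55 (SE 0.81) with 8R6 replicates 2 and 3 again among the acdS libraries. At such levels a few counts decide the value. The ACC oxidase genes Csa14g006260 and Csa17g008270 had log2 fold changes of −0.39 and −0.47, neither with an unadjusted p under 0.05. The first averaged 43.7 ± 15.5 CPM in the acdS lines and 56.8 ± 17.0 CPM in the DH55 groups (SD, n = 6 libraries each).

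Of 15 genes for ethylene response factors, 7 had an unadjusted p under 0.05 and a negative fold change and 3 a positive one (median −0.45), where the background was 7.72% and 5.9%. The median was −1.03 against the control, with 12 of 15 negative, and 0.11 against 8R6, with 6 of 15 negative. ERF4, a repressor of ethylene-responsive genes, was Csa19g021900 and had 6.30, 9.09 and 4.24 CPM in 35S::acdS and 9.50, 10.8 and 9.84 CPM in rolD::acdS, against 8.14, 8.97 and 11.7 CPM in 8R6 and 22.6, 15.4 and 12.3 CPM in the control (log2 fold change −0.63, SE 0.19, adjusted p = 0.194). In the other direction, RAP2.6, an AP2 factor induced by salt and abscisic acid in Arabidopsis, had a log2 fold change of 1.15 (SE 0.27, adjusted p = 0.144) in its copy Csa03g046520 and of 1.25 (SE 0.31, adjusted p = 0.155) in Csa17g069360. Csa03g046520 had 47.8, 34.2 and 37.0 CPM in 35S::acdS and 85.3, 100 and 32.8 CPM in rolD::acdS, against 15.2, 7.87 and 13.6 CPM in 8R6 and 53.1, 36.3 and 53.8 CPM in the control. The log2 fold change of this copy was 2.13 against 8R6 (adjusted p = 0.0389) and 0.17 against the control (adjusted p = 0.961), and 8R6 minus control was −1.96 with an adjusted p of 0.2.

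The other genes the study names gave the following counts, none with an adjusted p of 0.05 or less. They too were named for a difference from the control on these libraries, so their signs are not independent evidence of a direction. Of all tested genes 7.72% were negative and 5.9% positive at an unadjusted p under 0.05. Of 15 NAC factors 9 had negative fold changes and 7 of them an unadjusted p under 0.05, with a median of −0.21 for the 15. Against the control all 15 were negative (median −0.85), and against 8R6 6 of the 15 were (median 0.43). In Csa02g004650, a NAC factor, the mean was 4.72 ± 2.07 CPM in the acdS lines and 10.1 ± 2.74 CPM in the DH55 groups. The 5 GH3 genes, PBS3 among them, were all negative, 4 with an unadjusted p under 0.05. The 4 SAUR genes, which are early auxin-response genes of cell expansion, were all positive and 2 had an unadjusted p under 0.05. Their median was 1.07 against the control and 0.11 against 8R6, where 2 of the 4 were negative, and against both DH55 groups it was 1.09 for 35S::acdS and 0.29 for rolD::acdS. The study names most of these SAUR genes for 35S::acdS, which bears on the difference between the lines. Csa09g076010 had 15.9, 18.9 and 23.5 CPM in 35S::acdS and 11.8, 7.76 and 8.76 CPM in rolD::acdS, against 18.6, 4.90 and 4.91 CPM in 8R6 and 5.55, 3.91 and 8.64 CPM in the control. Cytokinin oxidase 3 (Csa11g090460), which degrades cytokinin, had 0, 0.178 and 0.0865 CPM in 35S::acdS and 0, 0 and 0 CPM in rolD::acdS, against 0.643, 0.0645 and 0.0973 CPM in 8R6 and 0.406, 0.695 and 0.623 CPM in the control (adjusted p = 0.146). Csa11g090460 passed the filter of 0.5 CPM through DH55 libraries alone, so a lower acdS level was largely built into its being tested. Its homologue Csa02g061320 was below the filter, with 0 to 2 counts in acdS libraries and 1 to 21 counts in DH55 libraries. Chlorophyllase 1 (Csa17g025490), which removes the phytol tail of chlorophyll, averaged 16.1 ± 5.65 CPM in the acdS lines and 28.0 ± 4.54 CPM in the DH55 groups (log2 fold change −0.84, SE 0.19, adjusted p = 0.134). The 4 photosystem genes were negative with 3 at an unadjusted p under 0.05, but their median was −1.39 against 8R6 and 0.31 against the control. Csa08g050560 had 33.1, 32.8 and 29.9 CPM in 35S::acdS and 35.8, 49.6 and 43.2 CPM in rolD::acdS, against 68.5, 75.9 and 73.4 CPM in 8R6 and 27.5, 32 and 31.0 CPM in the control.

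The gene groups of the study's own lists were counted in the same fit. The study chose these genes on the same libraries for their difference from the control, so the counts are not independent evidence of a direction. Of all tested genes 48.9% had negative fold changes, and 7.72% were negative and 5.9% positive at an unadjusted p under 0.05. Of 874 tested genes from the list of an acdS line, 780 had negative fold changes, and 490 negative and 55 positive ones had an unadjusted p under 0.05. Their median log2 fold change was −0.92, with −1.15 against the control and −0.66 against 8R6. All 27 biotic stress genes were negative, 17 with an unadjusted p under 0.05 (median −1.06), and so were all 20 WRKY factors (10, median −0.75) and all 38 receptor kinases (20, median −0.88). The WRKY median was −1.28 against the control and −0.29 against 8R6. Members of these families that the study lists for 8R6 alone went the other way. Positive were 2 of 2 biotic stress genes, 2 of 2 WRKY factors and 3 of 3 receptor kinases. An unadjusted p under 0.05 was found for 2 of those receptor kinases and for 0 of the others. The direction of a family thus followed the list that held its genes. Calcium signalling had 26 of 27 negative, 14 of them with an unadjusted p under 0.05, and 1 positive (Csa20g009740, calreticulin family, log2 fold change 0.62, SE 0.14, adjusted p = 0.119).

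Cell wall genes formed the longest of these lists. Of 65 tested, 58 were negative, and an unadjusted p under 0.05 was found for 28 negative and 2 positive ones (median −0.66). Beside XTH6, the wall-modifying XTH24 gene Csa10g012230 averaged 17.2 ± 8.40 CPM in the acdS lines and 49.4 ± 10.2 CPM in the DH55 groups without overlap (SD, n = 6 libraries each). Its log2 fold change was −1.57 (SE 0.25, adjusted p = 0.0892). Csa20g037860, a homologue of the xylan-synthesis gene FRA8, averaged 2.57 ± 0.805 CPM in the acdS lines and 4.85 ± 0.665 CPM in the DH55 groups, also without overlap (log2 fold change −0.92, SE 0.17, adjusted p = 0.0892). For this list the median against both DH55 groups was −1.26 for rolD::acdS and −0.12 for 35S::acdS. The study listed most of these genes for rolD::acdS on these libraries, so that difference follows largely from the choice. It was not tested for the list. Transport genes had 39 of 45 negative, and 23 negative and 3 positive ones with an unadjusted p under 0.05, and protein degradation genes had 47 of 53 negative, with 27 and 5. On the list for 8R6 alone, 10 of 13 transport genes and 12 of 14 protein degradation genes were positive, and 6 of 9 cell wall genes negative.

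**Figure D5:**
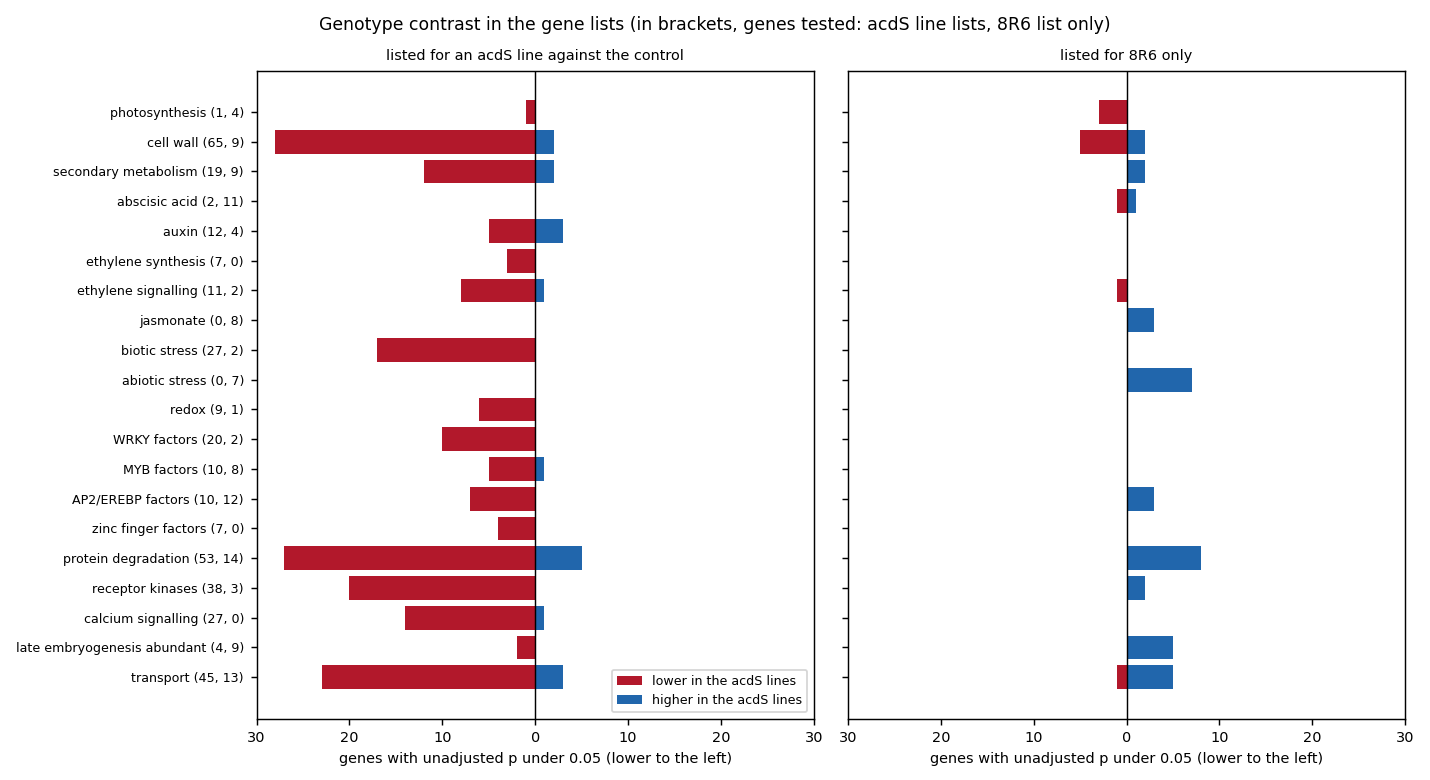
Number of genes per list with an unadjusted p under 0.05 in the acdS lines against the DH55 groups, lower to the left and higher to the right, for genes listed for an acdS line and for genes listed for 8R6 alone; tested genes per list are in brackets. Biotic stress shows 17 lower and 0 higher genes in the acdS lists, and abiotic stress shows 0 lower and 7 higher in the 8R6 list.

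Genes that the study lists for 8R6 alone were mostly positive. They were chosen for a difference of 8R6 from the control, and 8R6 is part of the DH55 side here, so the choice bears on this direction. Of 314 tested, 246 had positive fold changes, and 106 positive and 29 negative ones had an unadjusted p under 0.05. Their median was 0.42, with 1.18 against 8R6 and −0.26 against the control. The 7 abiotic stress genes were all positive with an unadjusted p under 0.05 (median 0.90), but the median was 1.81 against 8R6 and 0.10 against the control. Among them, the CAP160 gene Csa02g045340, whose Arabidopsis counterpart is the desiccation-responsive RD29B, averaged 34.6 ± 13 CPM in the acdS lines and 15.0 ± 12.3 CPM in the DH55 groups (SD, n = 6 libraries each). On the log2 scale the fold change was 2.69 against 8R6 (adjusted p = 0.0421) and 0.48 against the control. Csa11g104590, a dehydrin, one of the hydrophilic proteins made under water deficit, averaged 663 ± 288 CPM in the acdS lines and 419 ± 227 CPM in the DH55 groups (1.48 against 8R6, 0.10 against the control). All 9 late embryogenesis abundant genes of this list were positive, 5 with an unadjusted p under 0.05 (median 1.29, with 2.57 against 8R6 and 0.27 against the control). The 4 such genes on the list of an acdS line were all negative, 2 with an unadjusted p under 0.05 (median −0.87). Of 8 genes of jasmonate synthesis 7 were positive, 3 with an unadjusted p under 0.05 (median 0.30, with 0.99 against 8R6 and −0.39 against the control). Allene oxide cyclase 3 (Csa09g008880), an enzyme of that pathway, averaged 6.52 ± 1.83 CPM in the acdS lines and 4.31 ± 2.13 CPM in the DH55 groups, at 1.35 against 8R6 (adjusted p = 0.0375) and 0.08 against the control.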

How the data were processed

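Shoot RNA of 12 libraries was prepared with TruSeq Stranded kits. Per the study's methods, the authors trimmed reads with Trimmomatic, aligned them with STAR to the C. sativa reference and counted reads per gene. The handling of reads that match several homeologues is not given in the sources used here. The deposited table holds whole-number counts per gene by the authors, not normalized values, and no unit other than counts was used. It has no comparison columns and 0 columns without a sample.

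Counts were fitted over all tested genes with edgeR 4.0.16 in R 4.3.3 (TMM, quasi-likelihood test, robust, 4 group means). Fold changes are (35S::acdS + rolD::acdS)/2 minus (8R6 + control)/2 on the log2 scale, and p-values were adjusted by Benjamini-Hochberg over 56932 genes. Calls needed a log2 fold change beyond 1 together with an adjusted p not above 0.05. Standard errors were derived from the fold change and its F statistic. CPM was computed with TMM-scaled library sizes. The scripts were tested on simulated data.

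Named genes were to be called genes without overlap between the sides. As 0 were called, the 12 annotated and 2 unannotated genes with the smallest unadjusted p in each direction were taken, with those the paper names (values for up to 3 per list). Members and lists were chosen with earlier results of these data known. Gene names and Arabidopsis orthologues came from the study's lists, which hold 1231 genes, 1188 of them tested. The reference gene table matched 0 of 89418 identifiers, so chromosomes are those written in the identifiers and no sequence is given. Alternatives were DESeq2 1.42.0, limma 3.58.1 (log2(CPM + 0.5)), fixed dispersions, other filters and scalings, each line or DH55 group alone, a replicate block and leaving out each library. Leaving out the chromosome 4 genes or both replicates 2, and estimation without the robust option, were added after seeing the data.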

Additional observations from a re-analysis of the deposited data

Results flagged for a closer look

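In 56 sets of 6 libraries, the acdS or the DH55 side of a named gene, the gap between the highest or lowest library and its neighbour was compared with the range of the set, by the 95% limit for sets of that size. Chance alone gives about 1 in 20 such sets, and 3 of the 56 were past it. In Csa07g046140 (ICS1) control replicate 2 stood at 11.1 CPM, with the next DH55 library at 7.16 CPM and the lowest at 5.21 CPM. In Csa07g037510, which encodes a PB1 domain protein, rolD::acdS replicate 2 stood at 13 CPM, with the next acdS library at 6.72 CPM. In Csa12g014370 (B3 factor) the same library stood at 2.28 CPM, with the next at 1.08 CPM.

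The difference of the acdS lines from a DH55 group depended on which group it was for Csa17g035560 and Csa02g069780. The tested difference of 8R6 minus control was −1.88 (adjusted p = 0.0345) for Csa17g035560 and −0.94 (adjusted p = 0.0335) for Csa02g069780, by edgeR on the log2 scale. The 8R6 libraries were below the acdS and control libraries in both genes.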

How the results depend on the processing

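The counts of 0 lower and 0 higher genes stayed at 0 under DESeq2 size factors, no composition factor, at least 1 CPM in 6 libraries, a fixed dispersion (BCV) of 2, 2 genotype means, the control or 35S::acdS alone, no robust option, and without the chromosome 4 genes or both replicates 2. Lower and higher counts were 201 and 71 with DESeq2, 718 and 457 at a BCV of 0.2, and 118 and 93 against 8R6 alone. The lower count was 1 without a filter, and the higher count was 1 with limma and 2 for rolD::acdS alone. Genes past the adjusted p alone numbered 919 with DESeq2, 2948 at a BCV of 0.2, 537 against 8R6, 4 without a filter, 2 with limma and with rolD::acdS alone, and 0 at a BCV of 2, with 2 genotype means, against the control, with 35S::acdS alone and without both replicates 2. Over libraries left out, these counts ranged over 0 to 12 lower, 0 to 6 higher and 0 to 74 past the adjusted p, the last without 8R6 replicate 1.

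Same-numbered replicates deviated together only in part (18 correlations from −0.35 to 0.30, 9 over 0.1), so the numbers were not taken to pair the libraries. With a replicate block the counts were 5 lower, 2 higher and 13 past the adjusted p, and 3 named genes differed between the DH55 groups.

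Listed genes with an unadjusted p under 0.05 numbered 680, against 15 at a BCV of 2, 447 for 35S::acdS alone, 987 at a BCV of 0.2, and 576 to 752 over libraries left out. Named genes that differed between the DH55 groups, 2 in the main test, numbered 9 with DESeq2, 10 at a BCV of 0.2, 3 without a filter, 1 with limma, 0 at a BCV of 2, without the robust option and without both replicates 2, and 0 to 4 over libraries left out. Between the acdS lines they numbered 1 with DESeq2, 3 at a BCV of 0.2 and 0 to 0 over libraries left out.

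Of 1673 fold changes of 58 genes under 29 alternatives, 1668 kept their sign. The exceptions were −0.10 for Csa17g035560, 0.29 for Csa08g050560 and 0.33 for Csa06g036870 against the control alone, −0.048 for Csa17g042390 against 8R6 alone and 0.032 for Csa01g001010 with rolD::acdS alone. The causes were not tested. Csa16g041690 passed an adjusted p of 0.05 under 19 of 29 alternatives.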
